A study of Mus musculus with 8 samples.

Results

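The CD28 family and a set of further coinhibitory receptors were followed as 10 genes: Cd28, Icos, Ctla4, Pdcd1 and Btla of the CD28 family, and Cd160, Tigit, Lag3, Havcr2 and Cd200. They were chosen by name among the 29924 gene names of the array, with earlier results of these data known. All 10 were among the 15764 genes bright enough to be tested. mRNA came from pLN of B6.Cg-Foxp3<tm1Mal> mice, in which Foxp3 expressing cells carry EGFP, aged 8 to 14 weeks and immunized s.c. with KLH in alum. 4 types of CD4 T cells were sorted by the authors: naïve CD4 T cells (GFP-PD1-GL7-), TFH cells (GFP-PD1hiGL7+), Treg cells (GFP+PD1-GL7-) and TFR cells (GFP+PD1hi, with or without GL7). Each type was hybridized on 1 one-color array at d12 and on 1 at d25 p.i. from 25 ng of RNA. A label gives 8 to 15 mice of mixed sex per pool. A cell type thus has 2 arrays, with no replicate at one day. The study worked with several independent experiments per day, and only these 8 arrays were analysed here.

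CD28 binds CD80 and CD86 on antigen presenting cells and gives T cells their main costimulus, while CTLA-4 binds the same ligands with higher affinity and restrains the response. ICOS is a second costimulator, needed for follicular T cells, and PD1 (encoded by Pdcd1) and BTLA carry inhibitory tyrosine motifs in their tails. TIGIT, LAG-3 and TIM-3 (encoded by Havcr2) dampen activated T cells through other ligands, CD160 shares the ligand HVEM with BTLA, and CD200 is itself a ligand that signals into cells bearing the CD200 receptor. TFH cells help B cells in the germinal center, and TFR cells are their Foxp3+ counterpart derived from Treg cells.

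In the RefSeq assembly GRCm38.p6, Cd28, Ctla4 and Icos follow each other directly on chromosome 1, and Pdcd1 lies elsewhere on that chromosome. Btla and Cd200 are direct neighbors on chromosome 16, which also carries Tigit, and Lag3 is next to Cd4 on chromosome 6. By the files, in build NCBI37, the probe of Pdcd1 lies at chr1:95935064-95935123, that of Ctla4 at chr1:60971801-60971860, that of Tigit at chr16:43649114-43649173 and that of Havcr2 at chr11:46294675-46294734. Icos has 2 probes (chr1:61055103-61055162 and the brighter one at chr1:61057105-61057164) and the other 9 genes have 1. The aligned span of the probes is 60 bases, but 2986 bases for Cd160 and 297 for Lag3. Exons and UTR under the probes were not assigned, since no annotation of build NCBI37 was used here. Upstream sequences were found in RefSeq's table (GRCm38.p6) for 7 of the 10 genes with 8 start sites. The 250 bases before the start are shown for Pdcd1 and Tigit, the 2 members with the largest rise in TFH cells. They are also shown for Havcr2, which was at the floor in TFH cells. Capitals mark every match to 5 motifs searched on both strands: GGAAA (the core of NFAT sites), TGANTCA (AP-1), TTCNNNGAA (STAT and BCL6), CAGCTG (an E box) and GTAAACA (forkhead factors).
Pdcd1, chr1:94052554-94052803, minus strand: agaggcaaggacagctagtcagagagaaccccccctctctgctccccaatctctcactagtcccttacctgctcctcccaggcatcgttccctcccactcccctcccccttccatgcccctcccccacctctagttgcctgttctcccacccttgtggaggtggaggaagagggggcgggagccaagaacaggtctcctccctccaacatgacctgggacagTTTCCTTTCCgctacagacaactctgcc
Tigit, chr16:43664185-43664434, minus strand: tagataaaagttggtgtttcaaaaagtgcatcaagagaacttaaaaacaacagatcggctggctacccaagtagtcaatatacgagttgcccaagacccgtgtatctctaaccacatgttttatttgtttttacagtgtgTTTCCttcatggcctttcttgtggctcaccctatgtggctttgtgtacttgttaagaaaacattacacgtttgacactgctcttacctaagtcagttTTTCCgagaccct
Havcr2, chr11:46454681-46454930, plus strand: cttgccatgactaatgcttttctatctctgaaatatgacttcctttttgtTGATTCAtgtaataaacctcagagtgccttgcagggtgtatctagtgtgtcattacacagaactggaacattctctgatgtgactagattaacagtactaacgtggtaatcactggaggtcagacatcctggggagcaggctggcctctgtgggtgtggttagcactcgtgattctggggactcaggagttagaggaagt
Pdcd1 has 2 matches to GGAAA, in reverse orientation (TTTCC) and directly beside each other at positions -28 and -23 before the start. Tigit also has 2, at positions -110 and -13, and Havcr2 has none but 1 match to TGANTCA at position -200. GGAAA is found in the same window of 55.6% of all 32851 promoters and in 4 of the 7 genes with a sequence, the others being Ctla4 and Cd160. TGANTCA is found in 6.75% of all promoters, TTCNNNGAA in 7.02% (here in 1 start site of Cd160), CAGCTG in 13.0% (here in Btla and Cd160), and GTAAACA in 3.17% and in none of these genes. A match is a description of the letters alone.

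The labels were checked against marker genes. Foxp3 was higher in Treg than in naïve T cells by 7.26 on the log2 scale and in TFR than in TFH cells by 8.98, Cxcr5 was higher in TFH than in naïve T cells by 7.16 and in TFR than in Treg cells by 3.30, and Ccr7 fell by 4.81 and fell by 2.36 in the last 2 comparisons. The share of probes well above background was 46.3% to 50.4% per array. All 4 arrays of d12 were on 1 slide, naïve T and TFH cells of d25 on another, and Treg and TFR cells of d25 on the last of the 3 slides, so day and slide cannot be told apart. Cells were sorted as CD4+B220-. Among markers of other cells, 10 B cell genes summed to 17276 relative units (RU) on the TFH array of d25, where 9 were above background, and to 5920 to 10349 on the other 7 arrays, where 4 to 7 were. Pax5 was not above background anywhere. The sum of 10 CD8 T and NK cell genes was 21127 to 23614 RU in naïve T cells, 6440 to 10738 in TFH cells, 10425 to 11443 in Treg cells and 5076 to 5452 in TFR cells, with Ncr1 not above background anywhere. The sum of 10 myeloid genes was 69605 to 113095 RU on all arrays, mostly from Siglech, with Clec9a, Cd14 and Adgre1 not above background anywhere. The sum of 8 proliferation genes was 1827 to 2549 RU in naïve T cells, 11989 to 18511 in TFH cells, 4981 to 5648 in Treg cells and 28979 to 45209 in TFR cells. The part of these marker genes in the differences of the receptors was not tested.

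Levels are given as normalized signal in RU, first for d12 and then for d25, and are compared within a gene only, since probes differ in brightness. Cd28 stood at 38553 and 52944 RU in naïve T cells, 45136 and 81620 in TFH cells, 33361 and 42356 in Treg cells, and 36218 and 49915 in TFR cells. The ranges of all neighboring cell types overlapped, and the highest and lowest mean were 1.61-fold apart, the smallest span of the 10 genes. Icos was 14801 and 14729 RU in naïve T cells, 37950 and 33232 in Treg cells, 91386 and 115906 in TFR cells, and 128273 and 185805 in TFH cells. Its 4 cell types did not overlap, and the second probe gave the same order, from 16427 RU in naïve T cells at d12 to 151621 in TFH cells at d25. Ctla4 was 502 and 619 RU in naïve T cells, 7083 and 8995 in TFH cells, 8109 and 10125 in Treg cells, and 10988 and 15753 in TFR cells. Naïve CD4 T cells were far below the other 3 cell types, TFH and Treg cells overlapped, and TFR cells were highest. Pdcd1 was 2136 and 2099 RU in naïve T cells, 4621 and 4482 in Treg cells, 87316 and 116049 in TFR cells, and 237465 and 303513 in TFH cells. No cell types overlapped for Pdcd1, but its protein PD1 was part of the sort, so that high levels in PD1hi cells were selected for. Btla was 9145 and 10697 RU in naïve T cells, 9341 and 11139 in Treg cells, 15267 and 18309 in TFR cells, and 28961 and 31314 in TFH cells. Only naïve T and Treg cells overlapped.

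Cd160 was 230 and 119 RU in naïve T cells, 480 and 299 in Treg cells, 2692 and 2733 in TFH cells, and 2984 and 2001 in TFR cells. The 2 follicular cell types overlapped and lay above both others. Tigit was 126 and 37.6 RU in naïve T cells, with the second value not well above background, 713 and 392 in Treg cells, 13152 and 5756 in TFH cells, and 14143 and 14345 in TFR cells. TFH cells were lower on the d25 array, and no cell types overlapped. Lag3 was 478 and 217 RU in naïve T cells, 691 and 580 in Treg cells, 13941 and 9058 in TFH cells, and 5490 and 9972 in TFR cells, where the 2 follicular types overlapped. Havcr2 was above background on both arrays only in TFR cells, with 581 and 342 RU. Treg cells had 73.2 RU at d12 and 54.2, not well above background, at d25, and naïve T and TFH cells were at the floor of 20 RU on all 4 arrays. Cd200 was 818 and 996 RU in naïve T cells, 2672 and 3154 in Treg cells, 4139 and 5453 in TFR cells, and 4148 and 5828 in TFH cells, where the 2 follicular cell types overlapped.

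**Figure D1:**
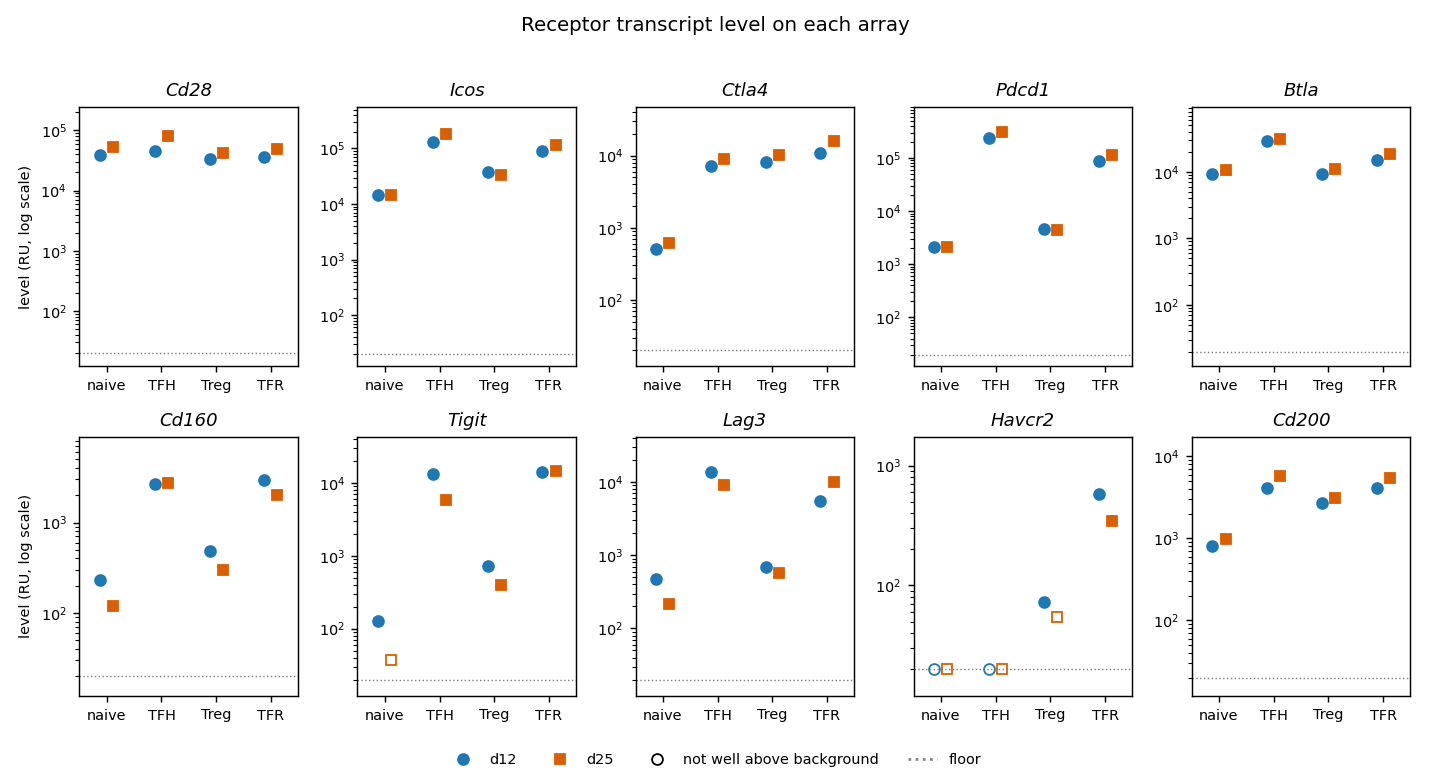
Level of each receptor in RU on a log axis for the 4 cell types, with a circle for the d12 array and a square for the d25 array. Open symbols are not well above background and the dotted line is the floor of 20 RU. Pdcd1 reaches 303513 RU in TFH cells, whereas Havcr2 leaves the floor in Treg and TFR cells only.

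The first comparison asks which receptors differ when naïve T cells have become TFH cells. 8 of the 10 receptors rose in TFH cells and none fell, all but Cd28 and Havcr2. In the same comparison 46.5% of all genes tested were called, 20.9% as higher in TFH cells. The median difference of the 10 was 3.61 on the log2 scale and that of all genes tested -0.07. The receptors were chosen with earlier results of these data known. Their counts and medians beside all genes, here and in the comparisons below, are therefore a description and no test of the set. Differences are means over both days ± SE from limma (n = 2 arrays per cell type), with p adjusted over all genes tested. Pdcd1 rose by 6.99 ± 0.15 (127-fold, adjusted p = 8.32e-05) and Tigit by 6.98 ± 0.42 (127-fold, adjusted p = 0.000448), ranking 29 and 30 among all genes tested by rise. PD1, the product of Pdcd1, was part of the sort, so the rise of Pdcd1, counted among the 8, was selected for. For Tigit, 1 of the 2 naïve arrays was not well above background. Lag3 rose by 5.12 ± 0.48 (34.9-fold, adjusted p = 0.00146) and Cd160 by 4.04 ± 0.24 (16.4-fold, adjusted p = 0.00045). Ctla4, the inhibitory counterpart of Cd28, rose by 3.84 ± 0.09 (14.3-fold, adjusted p = 8.63e-05), and Icos by 3.39 ± 0.20 (10.5-fold, adjusted p = 0.000425). Cd200 rose by 2.45 ± 0.10 (5.45-fold) and Btla by 1.61 ± 0.09 (3.04-fold), the smallest of the 8. Cd28 itself differed by 0.43 ± 0.15 with a 95% confidence interval of 0.05 to 0.80 (adjusted p = 0.0667), and Havcr2 had no measured level on either side. In bulk RNA, more positive cells and more RNA per cell cannot be told apart.

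Within the slide of d12 the difference was 6.80 for Pdcd1, 6.71 for Tigit and 3.82 for Ctla4, and within that of d25 it was 7.18, 7.26 and 3.86. B cells also express Btla and Cd200. The differences of Btla and Cd200 were 1.66 and 2.34 at d12, and 1.55 and 2.55 at d25. At d12 the B cell genes summed to 7878 RU in TFH cells, with Cd22 highest at 6017 RU. In naïve T cells they summed to 7971 RU, with Cd79b highest at 3224 RU. At d25 the B cell genes summed to 17276 RU in TFH cells and to 5920 RU in naïve T cells. Cd79b was highest in both, at 6845 and 2422 RU. The part of B cells in the 2 differences was not tested. The 8 calls held without each array in turn. Cd28 alone changed sides and was called without the TFH array of d12, with a difference of 0.64 (adjusted p = 0.0178). With normexp background correction, which adds an offset of 50 to each signal, the rises from low levels were smaller but called. They were 5.26 for Tigit, 4.49 for Lag3 and 3.15 for Cd160. Cd28 was also called in limma with that correction (0.43, adjusted p = 0.0494) and with an intensity trend (0.43, adjusted p = 0.03).

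The matching comparison in Foxp3+ cells is TFR against Treg cells. 9 of the 10 receptors rose in TFR cells and none fell, with Cd28 as the exception. Pdcd1 is 1 of the 9, and its rise was selected for by the sort on PD1. Of all genes tested 39.6% were called and 18.7% as higher in TFR cells. The median difference was 2.11 for the 10 receptors and -0.08 for all genes tested. Tigit rose most, by 4.75 ± 0.42 (26.9-fold, adjusted p = 0.0022), followed by Pdcd1 with 4.47 ± 0.15 (22.1-fold, adjusted p = 0.000372) and Lag3 with 3.55 ± 0.48 (11.7-fold, adjusted p = 0.00605). Havcr2, which marks strongly activated T cells, rose by 2.82 ± 0.22 (7.08-fold, adjusted p = 0.00169), with 1 of 2 Treg arrays above background. It was tested only because both TFR arrays were above background. Cd160 rose by 2.69 ± 0.24 (6.45-fold) and Icos by 1.54 ± 0.20 (2.90-fold). The other 3 rises were below 2-fold, namely Btla and Cd200 with 0.71 each (both 1.64-fold) and Ctla4 with 0.54 ± 0.09 (1.45-fold, adjusted p = 0.0126). Cd28 differed by 0.18 ± 0.15 (95% confidence interval -0.20 to 0.55, adjusted p = 0.375). Within the slides of d12 and d25, the differences were 4.31 and 5.19 for Tigit, 4.24 and 4.69 for Pdcd1, and 0.44 and 0.64 for Ctla4.

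3 of these calls rest on single arrays. Ctla4 was not called without the d12 or the d25 array of Treg cells or the d25 array of TFR cells (0.44 to 0.57, adjusted p 0.0687 to 0.0827). Cd200 was not called without the d25 array of Treg cells or either TFR array (0.64 to 0.74, adjusted p 0.0503 to 0.0576), and Icos was not called without the d25 array of TFR cells (1.4196, adjusted p = 0.0511). The value of Lag3, called without each array in turn, was 4.31 without the d12 and 2.78 without the d25 array of TFR cells, and that of Tigit was 5.39 and 4.11. That of Havcr2 was 1.47 with normexp correction.

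**Figure D2:**
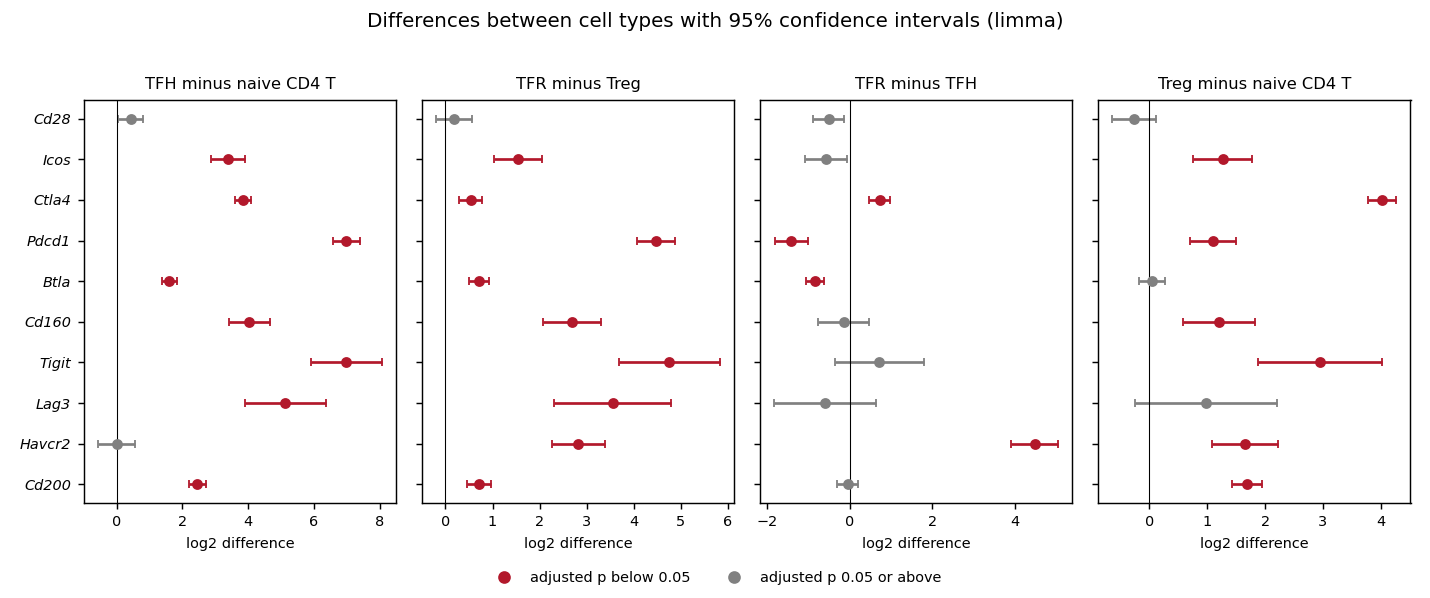
Log2 differences of the 10 receptors in 4 comparisons, as points with 95% confidence intervals from limma, red where the adjusted p was below 0.05. Pdcd1 and Tigit lie farthest to the right in TFH minus naïve T cells with 6.99 and 6.98, and Ctla4 in Treg minus naïve T cells with 4.02.

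Treg cells were compared with naïve T cells to see which receptors were already different before the follicular stage. 7 of 10 receptors were higher in Treg cells and none lower, where 9.88% of all genes tested were called and 5.89% as higher. The median difference was 1.23 for the receptors and -0.02 for all genes tested. Ctla4, a known target of Foxp3, rose most, by 4.02 ± 0.09 (16.3-fold, adjusted p = 0.000578). Tigit followed with 2.94 ± 0.42 (7.69-fold, adjusted p = 0.0184) and Cd200 with 1.69 ± 0.10 (3.22-fold, adjusted p = 0.00193). Icos rose by 1.27 ± 0.20, Cd160 by 1.20 ± 0.24 (adjusted p = 0.0471) and Pdcd1 by 1.10 ± 0.15, the last in cells sorted as PD1- on both sides. Havcr2 was called, but naïve T cells were not above background and the measured levels allow only an at least 1.08-fold rise, which was not called with normexp correction (0.55, adjusted p = 0.0963). Lag3 differed by 0.97 ± 0.48 (95% confidence interval -0.26 to 2.21, adjusted p = 0.271), Btla by 0.04 ± 0.09 (-0.18 to 0.27, adjusted p = 0.792) and Cd28 by -0.27 ± 0.15 (-0.64 to 0.11, adjusted p = 0.321).

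The d25 arrays of this comparison were on different slides. Within the slide of d12 the difference was 4.01 for Ctla4, 1.71 for Cd200, 2.51 for Tigit, 1.36 for Icos, 1.11 for Pdcd1 and 1.06 for Cd160, and with slide in place of day 3 receptors were called, namely Ctla4 (3.97, adjusted p = 0.0103), Cd200 (1.72, adjusted p = 0.0215) and Havcr2 (1.95, adjusted p = 0.0213). Ctla4 and Cd200 were called without each array in turn. Without 1 of the 4 arrays of the comparison, Icos gave 1.03 to 1.51 (adjusted p 0.0651 to 0.132), Pdcd1 0.96 to 1.25 (adjusted p 0.0731 to 0.118), Cd160 0.93 to 1.47 (adjusted p 0.0959 to 0.219) and Havcr2 1.45 to 1.85 (adjusted p 0.0589 to 0.116), and none of these 4 was called. Without either array of TFR cells, which enter through the common spread, Icos (adjusted p = 0.0713) and Cd160 (adjusted p = 0.116) were not called. Tigit was not called without the naïve array of d25 (2.41, adjusted p = 0.0787) or either Treg array (2.89 and 3.0, adjusted p = 0.131 and 0.117), and with normexp correction it was called at 1.56.

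TFR and TFH cells were both sorted as PD1hi, but TFH cells as GL7+ and TFR cells with or without GL7. They differed in 4 of the 10 receptors, 2 higher and 2 lower in TFR cells. The part of GL7 in these differences was not tested. The share of all genes tested that was called was 22.1%, with 11.6% higher and 10.5% lower in TFR cells. Pdcd1 differed by -1.415 ± 0.15 (2.67-fold lower in TFR cells, adjusted p = 0.00561) and Btla by -0.85 ± 0.09 (1.80-fold lower, adjusted p = 0.00462). Ctla4 was higher by 0.72 ± 0.09 (1.65-fold, adjusted p = 0.00921). Havcr2 was at least 13.0-fold higher in TFR cells, where the mean of the 2 TFR arrays is set against the lowest signal well above background on each TFH array. Its adjusted p of 0.000842 from limma belongs to the fitted difference, with both TFH arrays at the floor, and does not test the bound. Havcr2 passed the filter for testing only through TFR cells, where it is high, so this call is no independent support. The bound depends on the background correction, since the fitted difference of Havcr2 was 4.48 but 1.91 with normexp correction. The other 6 were not called. Icos differed by -0.58 ± 0.20 (adjusted p = 0.101) and Cd28 by -0.51 ± 0.15 (adjusted p = 0.0673), both with lower values in TFR cells at each day. Cd200 differed by -0.05 ± 0.10 with an interval of -0.31 to 0.21, and Cd160 by -0.15 ± 0.24 with an interval of -0.77 to 0.47. For Tigit (0.71 ± 0.42, interval -0.36 to 1.79) and Lag3 (-0.60 ± 0.48, interval -1.83 to 0.63) the arrays allow differences of over 2-fold.

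Within the slide of d12 the difference was -1.44 for Pdcd1, -0.92 for Btla, 0.63 for Ctla4 and 4.86 for Havcr2, while at d25 the cells were on different slides. With slide in place of day, Ctla4 was not called (0.67, adjusted p = 0.0593) and the other 3 were. Without the d12 array of TFR cells, Pdcd1 (-1.26) and Btla (-0.82) both had an adjusted p of 0.0529, and without the d25 array of TFR cells Ctla4 gave 0.62 (adjusted p = 0.0668). The single days differed for Tigit, with 0.10 at d12 and 1.32 at d25, and for Lag3, with -1.34 and 0.14. Cd28 was called without the TFH array of d12, at -0.73 (adjusted p = 0.0258).

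Whether the follicular change was the same with and without Foxp3 was tested as the difference between TFR minus Treg and TFH minus naïve T cells. It was called for 6 of 10 receptors, 5 with a smaller rise in Foxp3+ cells and 1 with a larger one, where 8.49% of all genes tested were called, 4.46% below 0 and 4.03% above. The median was -1.66 for the receptors and 0.00 for all genes tested. Ctla4 had the lowest value with -3.30 ± 0.13 (adjusted p = 0.0028). Its rise was 3.84 in Foxp3- and 0.54 in Foxp3+ cells. Pdcd1 followed with -2.52 ± 0.22 (adjusted p = 0.00755), then Icos with -1.85 ± 0.28 (adjusted p = 0.0258), Cd200 with -1.74 ± 0.14 (adjusted p = 0.00666) and Btla with -0.89 ± 0.12 (adjusted p = 0.0203). Havcr2 was the 1 receptor above 0, with 2.82 ± 0.31 (adjusted p = 0.0128), but in Foxp3- cells both sides were at the floor, so that this is the value of TFR against Treg cells alone. Tigit (-2.23 ± 0.59, adjusted p = 0.0938), Cd160 (-1.35 ± 0.34, adjusted p = 0.086) and Lag3 (-1.58 ± 0.67, adjusted p = 0.233) also had smaller rises in Foxp3+ cells but were not called. At d12 and d25 the values were -3.38 and -3.22 for Ctla4 and -2.56 and -2.48 for Pdcd1. They were -0.91 and -1.78 for Cd160 and -1.88 and -1.28 for Lag3. A smaller rise is not a lower level in TFR cells. Ctla4 was already higher in Treg than in naïve T cells by 4.02, and higher in TFR than in TFH cells by 0.72. For Cd200 these differences were 1.69 and -0.05. The sort on GL7 also differed between TFH and TFR cells, and its part was not tested. Both rises of Pdcd1 were selected for by the sort on PD1, and the part of that sort in their difference was not tested.

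Of the 6, Ctla4, Pdcd1 and Cd200 were called without each array in turn. Icos was called only in 1 of the 8, without the TFH array of d12, with values of -2.09 to -1.61 (adjusted p 0.0532 to 0.132) in the other 7. Btla was not called without either array of naïve T, Treg or TFR cells (-0.93 to -0.86, adjusted p 0.0877 to 0.111), and Havcr2 not without the naïve array of d25 or either Treg array (2.62 to 2.91, adjusted p 0.0544 to 0.0686). Cd160 was called without the TFH array of d12, with -1.73 (adjusted p = 0.033). With slide in place of day, Icos (-1.85, adjusted p = 0.0637) and Btla (-0.89, adjusted p = 0.0537) were not called.

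**Figure D3:**
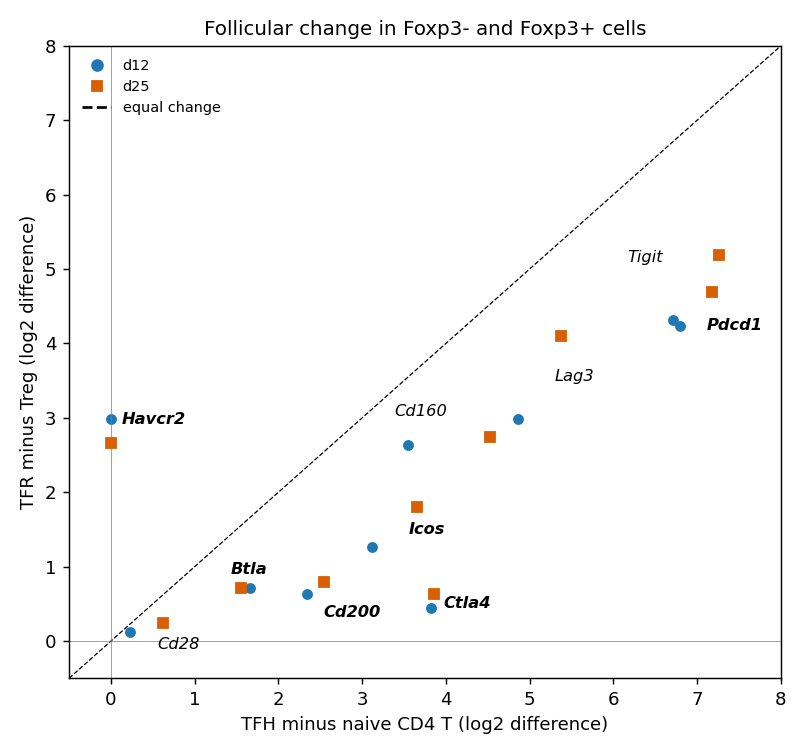
Log2 difference TFR minus Treg against TFH minus naïve T cells for each receptor, with circles for d12 and squares for d25 and a dashed line of equal change. Names in bold mark the 6 receptors called for the difference. Havcr2 lies above the line with 2.82, and Ctla4 lies farthest below it with -3.30.

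Between d12 and d25 no receptor was called over the 4 cell types, and 0.0698% of all genes tested were (11 genes). At an unadjusted p below 0.05 there were 6 receptors and 28.8% of all genes tested. Of the 6, Cd28 (0.53 ± 0.10), Ctla4 (0.37 ± 0.07), Cd200 (0.35 ± 0.07) and Btla (0.21 ± 0.06) were higher at d25, and Tigit (-0.94 ± 0.29) and Cd160 (-0.55 ± 0.17) lower. Their adjusted p from limma was 0.0739 to 0.129. Ctla4, Cd28, Cd200 and Btla had the higher value at d25 in every cell type.

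By the root mean square difference of gene-centered log2 levels over the 8 arrays, the members most alike in pattern were Cd28 and Btla (0.50), Icos and Cd200 (0.52), and Icos and Cd160 (0.61). Among all genes tested, the closest to Pdcd1 were Jdp2 (0.27), a leucine zipper factor of the AP-1 group, and Gna14 (0.42). The closest to Tigit were Il1r2 (0.41), a decoy receptor for IL-1, and Dab2ip (0.72), and to Lag3 Cybb (0.37) and Tnfsf13b (0.40). Ctla4 was closest to Mdfic (0.26) and Tmem136 (0.27), Icos to Atp9a (0.22) and Aplp1 (0.23), and Cd200 to Samsn1 (0.12) and Sh3rf1 (0.19). Havcr2 was closest to Calca (0.46) and Ccr8 (0.51), a chemokine receptor of Treg cells, and Cd160 to Bcl2a1c (0.29) and Grhl1 (0.32). For Btla these were Kank2 (0.13), which was not well above background on 6 of the 8 arrays and at most 63.1 RU, and Rnaset2a (0.14), and for Cd28 Parp8 and Hmgb1-rs17 (0.11 each), whose small values go with the small range of Cd28 itself. Cybb, Tnfsf13b and Calca were not well above background on 4 arrays each, Gna14 on 3, Tmem136 and Dab2ip on 2 and Grhl1 on 1, so that their distances rest in part on values at or near the floor.

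Of 12 tested ligands and counter-receptors, 7 rose and 2 fell in TFH cells, 4 rose and 2 fell in TFR against Treg cells, and 4 were higher and 2 lower in TFR than in TFH cells. Their median difference was 0.47, 0.09 and 0.24, respectively, where 46.5%, 39.6% and 22.1% of all genes tested were called. Pdcd1lg2, which encodes the PD1 ligand PD-L2, was 550 and 720 RU in naïve T cells, 8081 and 11228 in TFH cells, 3711 and 4009 in Treg cells, and 14086 and 16966 in TFR cells. It rose by 3.92 ± 0.12 in TFH (adjusted p = 0.000122) and by 2.0 ± 0.12 in TFR cells (adjusted p = 0.000856), and was higher in TFR than in TFH cells by 0.70 ± 0.12 (adjusted p = 0.0172; not called without either TFR array or the TFH array of d12). Cd86, a ligand of CD28 and CTLA-4, was 467 and 1175 RU in naïve T cells, 149 and 342 in TFH cells, 3281 and 4400 in Treg cells, and 2479 and 4659 in TFR cells. TFH cells were lowest and the 2 Foxp3+ types overlapped, so that TFR exceeded TFH cells by 3.91 ± 0.24 (adjusted p = 0.00128), but by 3.20 with normexp correction and by 1.96 with the median over all its probes. That median takes in probe signal with no difference between the cell types, so it is no second measure of Cd86. Pvrl2, which encodes the TIGIT ligand nectin-2, was above background in TFR cells only, with 314 and 349 RU, at least 6.23-fold above Treg cells (adjusted p = 0.00045) and at least 9.62-fold above TFH cells (adjusted p = 0.000525). It passed the filter for testing only through TFR cells, and both adjusted p belong to the fitted differences, not to the bounds. With normexp correction the log2 differences of Pvrl2 were 1.43 and 1.47, below these bounds. Lgals3, encoding the LAG-3 ligand galectin-3, rose by 2.23 ± 0.26 in TFH (adjusted p = 0.00274) and 2.28 ± 0.26 in TFR cells (adjusted p = 0.00391).

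Of 11 further coreceptors, 5 rose and 3 fell in TFH cells, and 1 rose and 3 fell in TFR against Treg cells, against 46.5% and 39.6% of all genes tested. Cd226 and Cd96 compete with TIGIT for its ligands. Cd226, the activating one, was 3845 and 6705 RU in naïve T, 1225 and 2686 in TFH, 5118 and 8125 in Treg, and 4592 and 6041 in TFR cells. It fell by 1.49 in TFH cells (adjusted p = 0.00359), and was higher in TFR than in TFH cells by 1.54 ± 0.19 (adjusted p = 0.00739), though not without the d12 array of TFR cells. Cd96 fell by 1.14 in TFH cells (adjusted p = 0.000972) and fell by 0.73 in TFR against Treg cells (adjusted p = 0.00515). Klrg1, an inhibitory receptor for cadherins, was 1675 and 1239 RU in Treg and 7455 and 9684 in TFR cells but not above background in naïve T cells, and 56.5 RU in TFH cells at d25. It was at least 24.7-fold higher in Treg than in naïve T cells (adjusted p = 0.00293; with normexp correction the log2 difference was 3.16, below this bound), and rose by 2.56 ± 0.42 in TFR against Treg cells (adjusted p = 0.0103; not called without either TFR array). Lair1, an inhibitory collagen receptor, fell by 3.11 in TFH cells (adjusted p = 0.0019) and fell by 1.38 in TFR against Treg cells (adjusted p = 0.0259), the latter not without either TFR array or the Treg array of d12. With normexp correction the differences of Lair1 were -2.26 and -0.76.

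Of 18 signaling adaptors and kinases, 5 rose and 3 fell in TFH cells, 3 rose and 5 fell in TFR against Treg cells, and 2 were higher and 6 lower in TFR than in TFH cells. Among all genes tested 46.5%, 39.6% and 22.1% were called, and the first 2 shares are close to those of the list. Ptpn11, which encodes the phosphatase SHP-2 recruited by PD1 and BTLA, was 10324 and 10978 RU in naïve T cells, 10117 and 11192 in Treg cells, 25759 and 27648 in TFR cells, and 103523 and 143486 in TFH cells. It rose by 3.52 ± 0.13 in TFH (adjusted p = 0.000176) and 1.33 ± 0.13 in TFR cells (adjusted p = 0.00268), and no follicular array overlapped with the others. The regulatory subunit Pik3r1 of PI3 kinase fell by 1.60 in TFH (adjusted p = 0.000617) and fell by 1.19 in TFR cells (adjusted p = 0.00235), and the catalytic subunit Pik3cd fell by 0.96 (adjusted p = 0.00184) and fell by 1.23 (adjusted p = 0.00169). With the median over all probes of the gene, Pik3cd was not called in either.

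Of 9 genes that handle the mRNA or protein of these receptors, 3 rose and 3 fell in TFH cells and 3 rose and 2 fell in TFR against Treg cells, beside 46.5% and 39.6% of all genes tested. Trat1 encodes TRIM, an adaptor that brings CTLA-4 to the surface. It was 11933 and 16226 RU in naïve T, 15828 and 14303 in Treg, 6787 and 6583 in TFR, and 2357 and 3513 in TFH cells. It fell by 2.27 in TFH (adjusted p = 0.00146) and fell by 1.17 in TFR cells (adjusted p = 0.0134), whereas Ctla4 rose in both. Rab11a, a GTPase of recycling endosomes, rose by 1.39 ± 0.20 in TFH (adjusted p = 0.00539) and by 0.85 ± 0.20 in TFR cells (adjusted p = 0.0277). The TFR calls of Trat1 were lost without either TFR array or the Treg array of d12 and those of Rab11a without any Treg or TFR array.

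**Figure D4:**
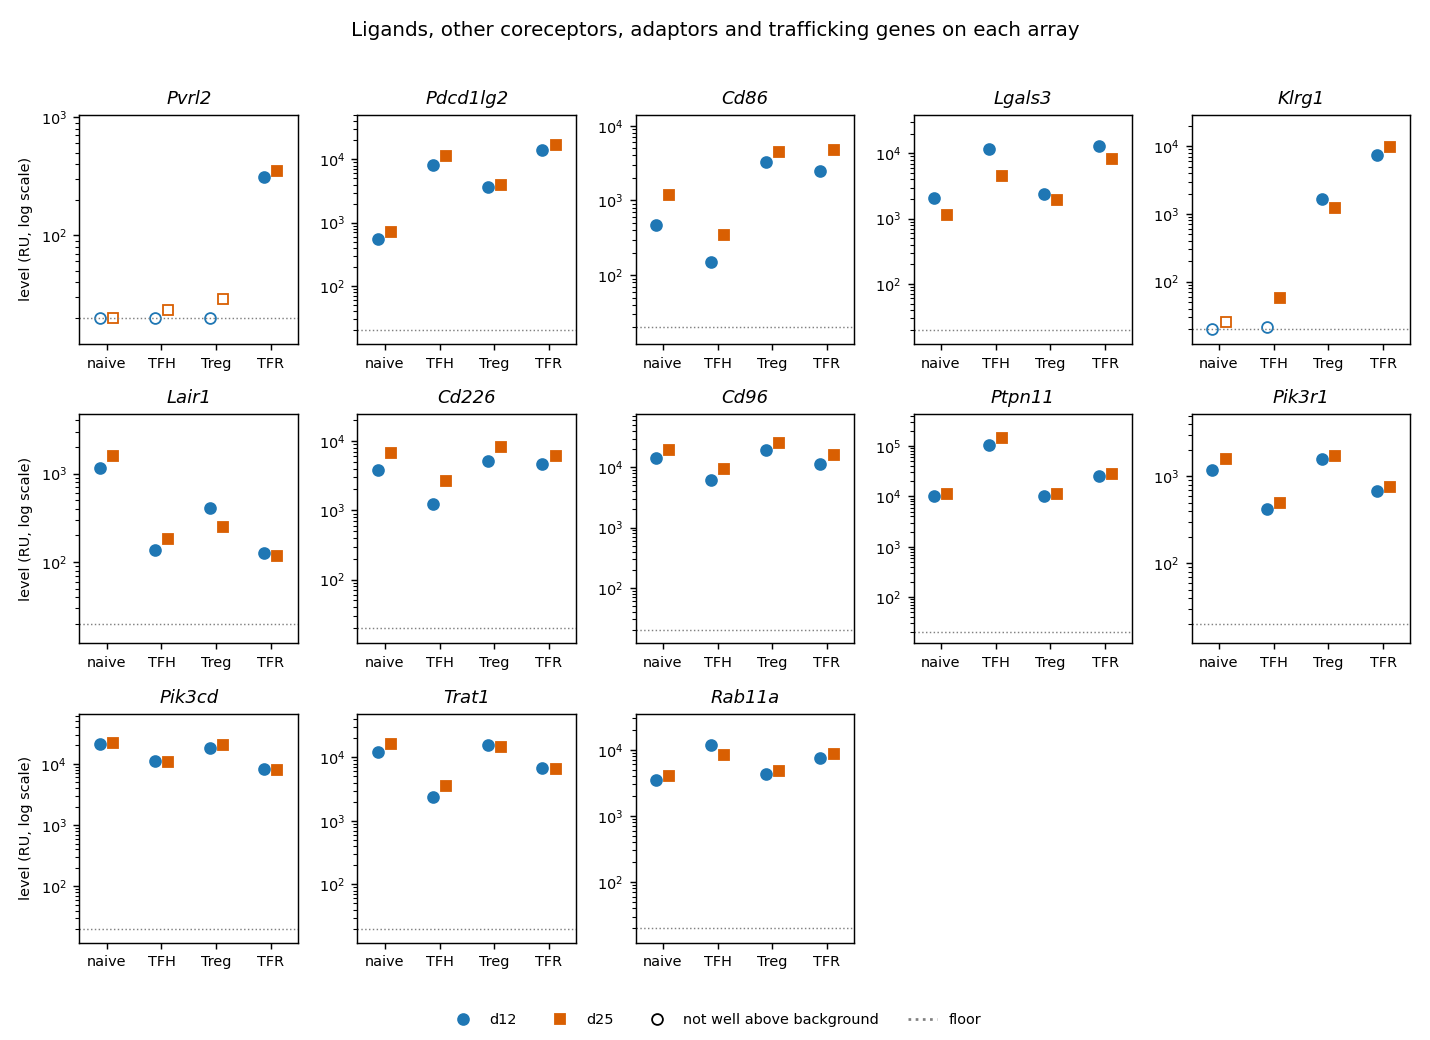
Level in RU on a log axis of the 13 ligands, coreceptors, adaptors and trafficking genes named in the text, with circles for d12, squares for d25, open symbols for values not well above background and a dotted line at the floor of 20 RU. Ptpn11 reaches 143486 RU in TFH cells, and Pvrl2 leaves the background in TFR cells only.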

How the data were processed

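Probe intensities of 8 one-color arrays were read from the deposited scanner output, which the authors made with Agilent Feature Extraction 10.7.3.1 and which gives a background-corrected signal, quality flags and, as a score, the SD of the pixels of each spot. The authors' steps were repeated from these intensities. Flagged spots, spots outside 1.42 times the interquartile range of the 4 spots of a probe and spots with a pixel coefficient of variation above 0.5 were excluded, which retained 86.5% to 89.2% per array. Spots were averaged by the geometric mean, quantile normalized, scaled to a 75th percentile of 1500 and floored at 20 RU. A second deposited table holds the authors' normalized intensity values, which correlated with those used here with r of 0.999 on each array, although the brightest 1% of probes were higher here by 0.51 on the log2 scale.

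A probe was well above background if more than 50% of its spots carried that flag. For each gene name the probe with the highest mean log2 value was used, and genes scored as well above background in both samples of 1 or more cell types were tested (15764 of 29924). log2 differences were estimated with limma 3.58.1 (R 4.3.3) with cell type and day as terms (3 residual degrees of freedom, prior 1.89), Benjamini-Hochberg adjusted over all genes tested and called at an adjusted p below 0.05. Day is the replicate number of the arrays. Where a gene was not above background on either array of a cell type, a lower bound replaces the fold, set against the lowest signal well above background. The adjusted p beside a bound is that of the fitted difference and does not test the bound. Havcr2 and Pvrl2 passed the filter only through TFR cells, where they are high. The paper's one-way ANOVA needs replicates of a cell type at one day and was not run. With the day term in the fit, p-values rest on how far the change between the days differed among the cell types. No replicate at one day enters them. The number of arrays limits the precision. The fit was tested on simulated data with known changes. Named genes are all 10 receptors, up to 4 genes of each pathway list (called in a pairwise comparison at 1 or more on the log2 scale, the largest differences first, with 1 gene not reported here), 2 nearest patterns per receptor and 3 label checks. Sums are given only for the marker lists of B cells, CD8 T and NK cells, myeloid cells and proliferation. The members and lists were chosen with earlier results of these data known. All 10 names matched RefSeq (GRCm38.p6), whose coordinates are given for promoters only. Alternatives covered scaling, background correction, the authors' table, spot exclusion, floor, filters, probes, slide, day and each array left out.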

Additional observations from a re-analysis of the deposited data

Results flagged for a closer look

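The follicular change, TFR minus Treg against TFH minus naïve CD4 T cells, differed between Foxp3+ and Foxp3- cells in the limma test of that difference for 9 of the genes described. These were 6 of the 10 receptors and, of the 13 pathway genes named, Pvrl2, Pdcd1lg2 and Ptpn11. Of all genes tested 8.49% were called, and the pathway genes had been named for their large differences between cell types. The difference was -1.85 for Icos, -3.30 for Ctla4, -2.52 for Pdcd1, -0.89 for Btla and -1.74 for Cd200 on the log2 scale. Icos was not called with no filter on dim genes, with the median over its probes or with slide in place of day. Btla was not called with slide in place of day or without the day term, nor Havcr2 and Pdcd1 with no filter on dim genes. Both rises of Pdcd1 were selected for by the sort on PD1. The fitted values were 2.82 for Havcr2 and 3.67 for Pvrl2, neither of which was well above background in TFH or naïve CD4 T cells, so that no change was measured there. Pvrl2 was not well above background in Treg cells either, and the measured levels allow 2.64 or more for TFR minus Treg. Both genes passed the filter for testing only through TFR cells, where they are high. Over the alternatives the value of Havcr2 ranged from 1.36 to 3.13 and that of Pvrl2 from 1.26 to 3.87. The difference was -1.92 for Pdcd1lg2 and -2.19 for Ptpn11.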

How the results depend on the processing

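Of 34 differences of receptors called, 19 were called under each of the 19 alternatives that gave a value and 15 were lost under at least 1. The number of receptors called stayed within 1.5 times for TFH against naïve CD4 T cells and TFR against Treg cells. For Treg against naïve CD4 T cells it was 7, but 2 with no filter on dim genes and 3 with slide in place of day, and 2 to 7 with 1 array left out. For the difference of the follicular changes it was 6, but 3 with no filter on dim genes and 3 to 7 with 1 array left out. For TFR against TFH cells it was 4, and 2 to 5 with 1 array left out. Between the days it was 0, but 1 with normexp correction, and 3 both with only genes above background on all arrays and with an intensity trend. Where 1 array was left out, the lone array was taken to vary like the others. The share of all genes called moved too. For Treg against naïve CD4 T cells it was 9.88%, but 2.35% with no filter on dim genes and 3.32% with slide in place of day. For the difference of the follicular changes it was 8.49%, but 1.40% with no filter. Between the days it was 0.0698%, but 5.42% with normexp correction, 5.99% with only genes above background on all arrays and 6.95% with an intensity trend.

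Only values that were not called reversed. These were Icos between the days (-0.0596) and Btla in Treg against naïve CD4 T cells (-0.0329) under 75th percentile scaling alone, and, in TFR against TFH cells, Cd160 (0.23) and Cd200 (0.0424) without the d25 array of TFH cells and Lag3 (0.16) without the d12 array of TFR cells. With 1 array left out the values of Cd160, Cd200 and Lag3 ranged from -0.53 to 0.23, from -0.14 to 0.0424 and from -1.37 to 0.16. The cause was not tested. Arrays of the same day deviated together from the mean of their cell type (r = 0.28 to 0.51 across genes). With no replicate block, that is without the day term, 8 receptors were called for TFH against naïve CD4 T cells, 7 for TFR against Treg cells, 3 for TFR against TFH cells, 5 for Treg against naïve CD4 T cells and 5 for the difference of the follicular changes. The shares of all genes tested were then 35.0%, 26.9%, 14.0%, 6.34% and 5.12%, in the same order.

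Over all genes, the calls ranged over the alternatives from 4309 to 7819 (7332 as reported) for TFH against naïve CD4 T cells, 2494 to 6806 (6249) for TFR against Treg cells, 942 to 4249 (3486) for TFR against TFH cells, 416 to 2064 (1557) for Treg against naïve CD4 T cells, 292 to 1816 (1339) for the difference of the follicular changes and 0 to 1095 (11) between the days. Between the days, 27.3% of the 11 calls were higher at d25, but 61.3% of 855 with normexp correction. Havcr2 and Tigit in naïve CD4 T cells are limited by signal over background.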
